A study of Mus musculus with 23 samples.

Results

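Chromatin accessibility was examined at 39 genes that encode regulators of chromatin and DNA methylation, out of 21887 protein-coding genes. A peak was assigned to a regulator gene when its summit lay in the gene body or within 20 kb of it, and to the nearest regulator gene where several qualified. This gave 341 of the 49124 accessible regions of the series. The genes were 3 DNA methyltransferases, 3 dioxygenases that oxidise methylated cytosine, 8 histone deacetylases, 5 Polycomb genes, 7 histone demethylases, 6 histone methyltransferases, 2 histone acetyltransferases and 5 chromatin remodellers.

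The data were ATAC-seq peak lists of striatal microglia from males 8 to 10 weeks old. ATAC-seq uses a transposase that inserts adapters into accessible DNA. Control offspring (CON) and offspring after maternal immune activation (MIA) were given saline (SAL) or lipopolysaccharide (LPS), a bacterial cell wall component, into the peritoneum, and cells were collected 18 hours later. The 4 groups were CON_SAL (n = 5), CON_LPS (n = 7), MIA_SAL (n = 6) and MIA_LPS (n = 5). The LPS dose was 4500 endotoxin units per gram. The sources used here give neither the strain of the mice nor the agent given to the dams, and the labels carry no allele or transgene. Cells were sorted as live, CD11b+, CD45-low and P2RY12+, from 10560 to 25000 per library. By its title the series asks whether prenatal immune stress dampens the reaction of microglia, so LPS was compared with saline within each prenatal history and MIA with CON within each treatment.

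DNA methyltransferases add methyl groups to cytosine, and the TET dioxygenases start their removal by oxidising them. Histone acetyltransferases add, and deacetylases remove, the acetyl groups that accompany active genes, while Polycomb complexes place or read repressive histone methylation. The trithorax type methyltransferases of the Kmt2 family, the Kdm demethylases and the ATP-driven remodellers adjust histone methylation and nucleosome position. In microglia such enzymes are known for their part in setting inflammatory gene programmes and in the lasting changes of response after an early stimulus. Their own genes are for the most part widely expressed, with promoters rich in CpG, the cytosine-guanine step that DNA methyltransferases act on.

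The deposited lists held from 33949 to 68312 peaks, of which 244 to 415 per library (0.608% to 0.742%) lay at the regulator genes. Read depth is unknown, since peak lists carry no counts, so only the best 33949 peaks of each list by the authors' −log10 p were used, and "no peak" below means none among those. A start site was read from the regions that overlapped it, and regions with a peak in fewer than 3 libraries were not kept. Of start sites in the RefSeq promoter table, those of the microglial genes Cx3cr1, Sall1 and Siglech were open in all 23 libraries, and 4 to 7 of the 8 microglial markers with an entry were open in each library. The start site of P2ry12, whose protein was used for the sort, had a peak in 3, 2, 5 and 2 libraries of CON_SAL, CON_LPS, MIA_SAL and MIA_LPS. No region lay at a start site of the oligodendrocyte lineage or lymphocyte markers. At most 2 markers of each of the neuronal, endothelial and astrocyte sets were open in any library. The most frequent were the endothelial Kdr, with peaks in 5, 5, 6 and 2 libraries in the same order of groups, and the neuronal Drd1, with 1, 5, 4 and 3. Markers of other myeloid cells moved with LPS. The start site of S100a8 had a peak in no saline library, 6 CON_LPS and 4 MIA_LPS libraries, that of F13a1 in the same numbers, and that of Camp in no saline, 3 CON_LPS and 2 MIA_LPS libraries. Start sites of Ly6c2, Ccr2, S100a9, Ly6g, Mpo and Elane, the other 6 of the 8 monocyte and neutrophil markers, lay under no region. The same held for Mrc1, Cd163, Pf4 and Ms4a7 among 5 markers of border-associated macrophages. The part of other myeloid cells in the LPS results was not tested.

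Promoter sequences show the range of the start sites on which the first result rests. RefSeq's table for GRCm38.p6 had an entry for 33 of the 39 genes, and the 250 bases before the start site are printed 5′ to 3′ on the strand of the gene with each CpG in capitals. Suz12, a core subunit of Polycomb repressive complex 2, had a peak at its start site in all libraries at ranks among the best of each list. Hdac5, a class II deacetylase, had a peak in all libraries over a promoter with fewer CpG, and no region lay at the start sites of Hdac9, of the same class.
Suz12, chr11:79992856-79993105, plus strand, 37 CpG: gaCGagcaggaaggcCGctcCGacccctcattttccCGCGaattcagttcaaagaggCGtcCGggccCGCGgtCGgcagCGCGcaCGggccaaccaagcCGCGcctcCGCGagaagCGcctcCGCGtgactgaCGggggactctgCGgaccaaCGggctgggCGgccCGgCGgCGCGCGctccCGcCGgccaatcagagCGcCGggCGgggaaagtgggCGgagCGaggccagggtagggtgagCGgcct
Hdac5, chr11:102230173-102230422, minus strand, 12 CpG: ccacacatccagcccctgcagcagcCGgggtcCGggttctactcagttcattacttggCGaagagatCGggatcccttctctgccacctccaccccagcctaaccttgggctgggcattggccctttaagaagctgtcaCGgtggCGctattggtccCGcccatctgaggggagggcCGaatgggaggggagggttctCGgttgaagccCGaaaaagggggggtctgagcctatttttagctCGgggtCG
Hdac9, chr12:34917096-34917345, minus strand, 0 CpG: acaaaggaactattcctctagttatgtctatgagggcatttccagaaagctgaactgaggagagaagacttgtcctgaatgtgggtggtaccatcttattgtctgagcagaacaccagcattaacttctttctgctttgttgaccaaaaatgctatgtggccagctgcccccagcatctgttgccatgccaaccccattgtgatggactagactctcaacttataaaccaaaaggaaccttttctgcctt

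Over the 25 regulator genes with a single promoter entry, the 21 whose start site was open in all libraries held a median of 25 CpG in these 250 bases, from 12 to 51. The 4 that were not open in all libraries held a median of 20.5, from 13 to 37, so the ranges overlapped. These ranges leave out Hdac9, Hdac7 and Ehmt2, which were not open in all libraries either but have several entries. The entries of Hdac9 held 2 and 0 CpG, below both ranges. Those of Ehmt2 held 18 and 36, and those of Hdac7 held 21, 6, 5 and 25. The open genes Scmh1, Dnmt1, Arid1a, Dnmt3a and Kdm2b also have several entries and were left out. Scmh1 had entries of 0 and 45 CpG and Dnmt1 of 26, 2 and 7. The entries of Arid1a, Dnmt3a and Kdm2b ran from 12 to 40. The median over all 21263 promoter windows was 10. The letters GGGCGG, the GC box that Sp factors recognise, were found on either strand in 34 of 47 windows of the regulator genes (72.3%), against 42.6% of all windows. CGGAAG, the core read by ETS factors, was in 4.26% against 17.1%, the AP-1 letters TGANTCA in 4.26% against 6.13%, and the CRE letters TGACGTCA in 0 against 1.92%. The 47 windows came from 33 genes and some windows of the same gene overlap, so they are not independent. Matches of different motifs may overlap, and a match describes the letters only.

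Most of the regulator genes had an open start site in every library. Of the 33 genes with an entry, 26 (78.8%) had a region at a start site with a peak in all 23 libraries, against 43.1% of 17492 protein-coding genes with an entry. Chd8, a remodeller, had the best-ranked start site, with a percentile rank (100 is the strongest peak of a list) between 95.6 and 99.7 and a median of 98.7. Those of Kdm4a, a demethylase, Hdac4, a class II deacetylase, and Ezh2, the catalytic subunit of Polycomb repressive complex 2, ran from 95.1 to 99.9, 93.8 to 99.7 and 92.2 to 98.9. At Suz12 the range was 93.3 to 99.6, and at Hdac5 it was 66.8 to 88.6.

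The exceptions were 7 genes. Start sites of Hdac9 and Kmt2d, a trithorax type methyltransferase, lay under no region, although at Kmt2d a region 539 bp upstream of the start site had a peak in 22 libraries. Tet1 had a start-site peak in 8 libraries, Arid1b, a subunit of the BAF remodelling complex, in 9, Kdm5b in 10, Hdac7 in 12 and Ehmt2 in 21. At Arid1b, too, a region 535 bp upstream of the start site had a peak in 22 libraries. The start-site peak of Tet1 was present in 3, 2, 3 and 0 libraries of CON_SAL, CON_LPS, MIA_SAL and MIA_LPS. That of Kdm5b was present in 2, 1, 2 and 5, and neither passed a test. Dnmt3a, a de novo methyltransferase, had its constant start-site peak at an internal promoter (rank 53.7 to 84.5), while a region at its upstream start sites had a peak in 6 libraries.

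For LPS over both histories, 0 of the 7 start-site regions of the regulators that could be tested by presence passed, and 0 of 27 by rank (limma). Over the start sites of all genes in the promoter table the shares were 13.3% of 1156 and 8.31% of 7500, and no difference between the regulators and other genes was tested.

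**Figure D1:**
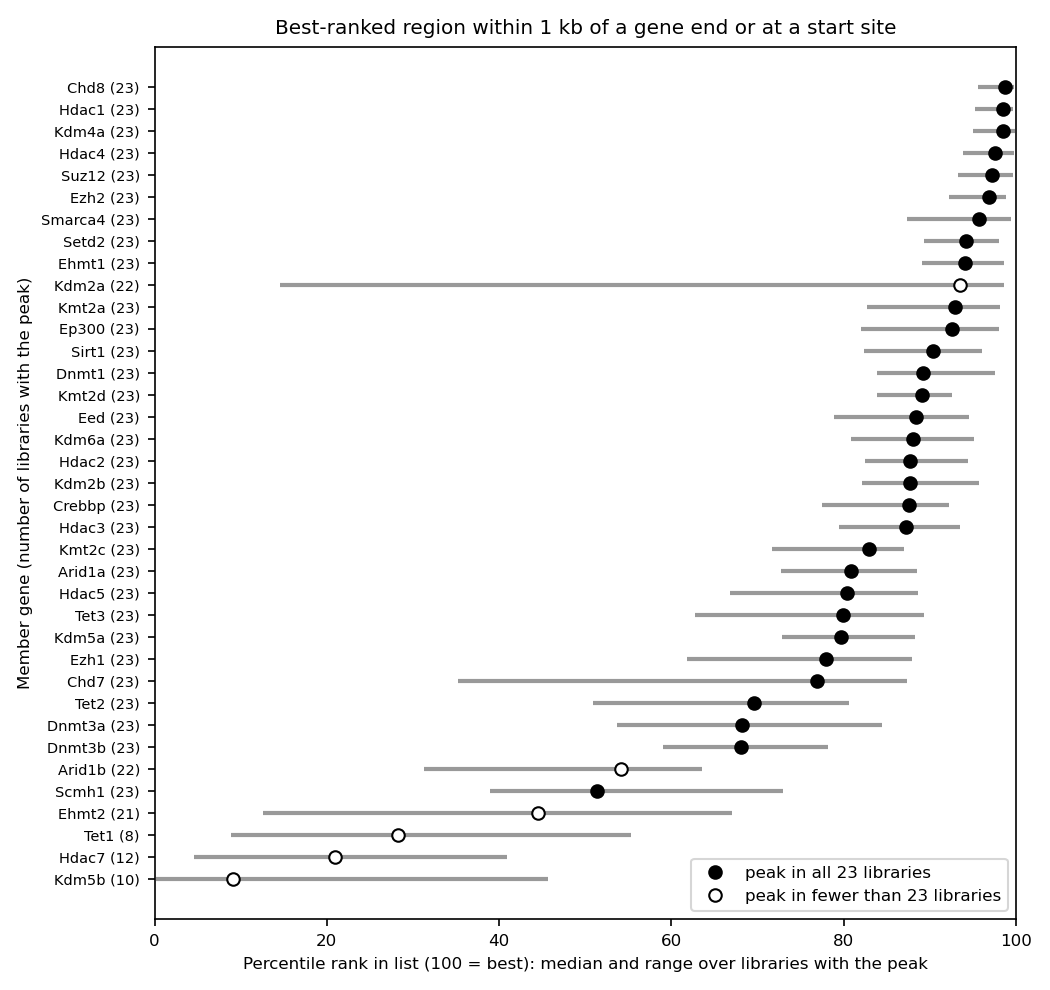
Percentile rank in the list (x axis, 100 is best) of the best-ranked region at a start site or within 1 kb of a gene end for 37 of the 39 genes (y axis); points are medians and lines run from the lowest to the highest of the libraries with the peak, whose number stands beside the gene. Chd8, Hdac1 and Kdm4a lie at the top with narrow ranges, and Tet1, Hdac7 and Kdm5b at the bottom with open points for peaks missing from some libraries. Hdac9 and Kdm6b had no such region.

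Of the 341 regions, 35 lay at a start site, 29 at another gene end within 1 kb, 165 in a gene body and 112 in the flanks. Exon and intron positions were not annotated in the gene table used here. A peak was present in all 23 libraries at 122 regions (35.8%), against 33.8% of all regions. By place, this held for 77.1% of start-site regions, 48.3% of other gene ends, 21.2% of gene-body regions and 41.1% of flank regions. The regulator was the nearest or the holding protein-coding gene for 240 regions (70.4%) but for only 15 of the 112 in the flanks, and a position near a gene does not show that the region acts on it. Arid1b held the most regions (31), followed by Dnmt3a (25), Hdac9 (23) and Chd7 (21), whereas Dnmt3b, Ezh2 and Kdm6a had 2 each. Just inside the limit of 20 kb lay regions 19846 bp from Hdac4, 19856 bp from Ezh1 and 19904 bp from Dnmt3a, and just outside lay regions 20022 and 20029 bp from Kdm2b and 20058 bp from Dnmt1.

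**Figure D2:**
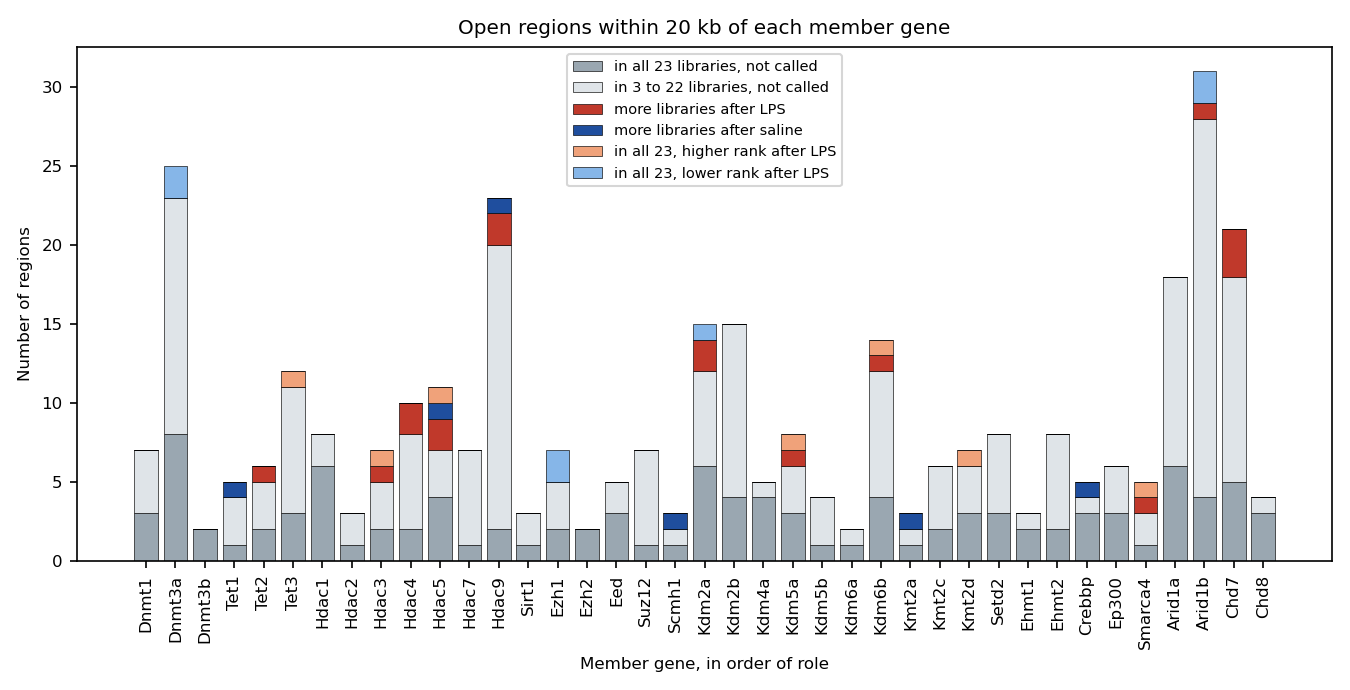
Number of regions (y axis) at each of the 39 genes (x axis, in order of role), split into regions with a peak in all 23 libraries, regions in 3 to 22 libraries, and those that passed a test for LPS by presence or by rank. Called regions are the smaller share at every gene, with none at 20 genes and the highest number, 4, at Hdac5, and Hdac5 and Hdac9 carry both red and dark blue segments.

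LPS was followed by both new and lost peaks at these genes. With all 4 groups used and prenatal history as strata, 23 of the 125 regions that could be tested changed in presence, 17 gained at 11 genes and 6 lost at 6 genes (exact conditional test, Benjamini-Hochberg adjusted over all tested regions, adjusted p under 0.05). The regulators' share of 18.4% lies beside a background of 23.7% of 17547 regions (13.6% against 15.3% gained, 4.8% against 8.39% lost), so the share is no higher than elsewhere in the genome. The median difference in libraries with a peak was -3.1 percentage points at the regulators and -1.19 over all tested regions. Called regions lay at 19 of the 39 genes when rank calls are included, and 20 genes had none: Dnmt1, Dnmt3b, Hdac1, Hdac2, Hdac7, Sirt1, Ezh2, Eed, Suz12, Kdm2b, Kdm4a, Kdm5b, Kdm6a, Kmt2c, Setd2, Ehmt1, Ehmt2, Ep300, Arid1a and Chd8. Of the remaining regions, 94 entered neither test. The split depended on which peaks were kept: with every deposited peak 16 regions were gained and 1 lost, and among peaks with −log10 q from 5 upwards there were 17 and 3.

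Tet2, which encodes a dioxygenase with a known part in myeloid cells, gained a region 2162 bp inside the gene from its start site (chr3:133541978-133542478). It had a peak in 0 of 5 CON_SAL, 7 of 7 CON_LPS, 0 of 6 MIA_SAL and 5 of 5 MIA_LPS libraries (adjusted p = 1.75e-04, exact conditional test). Ranks ran from 26.3 to 70.0 (median 49.8) in CON_LPS and were 62.3, 48.1, 68.0, 54.4 and 51.9 in MIA_LPS. The authors' fold enrichment over the local background had medians of 4.89 and 6.39 in these groups. No saline library had the peak, and the groups did not overlap. In the uncut lists the counts were 0, 7, 1 and 5. The start site of Tet2 itself was open in all libraries, with median ranks of 69.6, 70.2, 74.7 and 61.3 in the same order of groups.

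Tet1, the family member with the sparsest start site, lost a region in its gene body (chr10:62865220-62865720, 21854 bp from the start site). A peak was present in 5, 2, 6 and 2 libraries of CON_SAL, CON_LPS, MIA_SAL and MIA_LPS (adjusted p = 0.0131). Ranks in CON_SAL were 42.6, 36.9, 50.8, 12.8 and 18.1, and the 4 LPS libraries with the peak had ranks from 1.5 to 26.2. With all deposited peaks the counts were 5, 3, 6 and 5 and the call was lost. At Tet3 a region in all libraries at the upstream end of the annotated gene (chr6:83456406-83456906) rose in rank after LPS by 10.5 points (SE 2.77, limma, adjusted p = 0.00977). The group means were 62.7 ± 7.26, 75.2 ± 6.76, 66.7 ± 5.34 and 75.2 ± 4.22 (SD), with saline and LPS libraries overlapping. This call was lost when peaks were ranked by fold (highest adjusted p over its alternatives 0.0616, limma).

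Among the DNA methyltransferases, no region passed by presence, and 2 regions at Dnmt3a fell in rank after LPS. The region in the gene body (chr12:3834860-3835360) had mean ranks of 78.0 ± 4.96 (CON_SAL), 71.3 ± 6.98 (CON_LPS), 84.3 ± 4.73 (MIA_SAL) and 66.4 ± 3.98 (MIA_LPS; SD). Over both offspring groups it fell by 12.3 points (SE 2.48, limma, adjusted p = 8.53e-04). In MIA offspring, ranks of 88.4, 83.3, 86.8, 85.3, 86.7 and 75.3 after saline stood above all 5 after LPS (71.6, 64.8, 62.0, 64.1 and 69.4), whereas the CON groups overlapped. The change was -17.9 points in MIA (adjusted p = 0.00249) and -6.72 in CON (adjusted p = 0.280), and the difference between these responses, -11.2 points (SE 4.96), had an unadjusted p of 0.0319 and did not pass (limma, adjusted p = 1.00).
The region 7237 bp upstream of the start site of Dnmt3a (chr12:3799493-3799993) fell by 21.4 points (SE 5.68, adjusted p = 0.0100). It held a single low library in each LPS group, at rank 3.59 in CON_LPS and 11.8 in MIA_LPS, below the other LPS libraries at 37.0 to 58.8. Dnmt1, the maintenance methyltransferase, and Dnmt3b had 3 and 2 regions tested by rank with none called.

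Histone deacetylase genes had 7 gained and 2 lost regions among 28 tested, beside 15.3% gained and 8.39% lost over all tested regions. No difference between a role and other regions was tested. Hdac4 gained 2 gene-body regions, chr1:91984457-91984957 with peaks in 0, 5, 0 and 4 libraries (adjusted p = 0.00471) and chr1:92137132-92137632 with 0, 6, 0 and 2 (adjusted p = 0.0112). Their peaks were weak, with ranks from 8.04 to 39.8 in the former. In the uncut lists the counts were 0, 6, 0 and 5, and 1, 6, 3 and 3, and the latter call was lost, as it was with ranking by fold. Hdac5 gained chr11:102216531-102217031 in the gene body, with 2, 6, 0 and 5 libraries (adjusted p = 0.0139), and lost chr11:102208183-102208683, with 3, 0, 4 and 0 (adjusted p = 0.0144). In the uncut lists the lost peak was present in 3 MIA_LPS libraries, and that call was lost. Hdac5 also gained a flank region with 0, 2, 0 and 4 libraries.
A second flank region of Hdac5, 15105 bp upstream and nearest to Hrob, was open in all libraries and rose by 15.6 rank points (SE 2.46, limma, adjusted p = 5.26e-05). Its ranks were 67.4, 74.4, 53.3, 81.4 and 69.4 in CON_SAL and 82.4 to 95.6 (median 88.5) in CON_LPS, so that all LPS libraries of CON stood above all saline ones. In MIA_SAL they ran from 67.1 to 82.0 (median 76.6) and in MIA_LPS they were 87.4, 88.7, 87.7, 86.1 and 90.8, again apart.

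Hdac9, with many regions in a body of 870 kb, gained 2 regions (0, 4, 0 and 4 libraries, and 0, 6, 3 and 4) and lost 1, at chr12:34495802-34496302 (3, 1, 4 and 0 libraries, adjusted p = 0.0480). In the uncut lists the lost peak had 3, 3, 4 and 3 libraries. This call was kept in 7 of 31 alternatives, and leaving out any of 18 single libraries ended its call. Near Hdac3, the catalytic subunit of the NCoR and SMRT corepressors, a region inside the neighbouring gene Diaph1 gained a peak, with 2, 7, 1 and 5 libraries (adjusted p = 0.00807). With lists left whole, the counts were 2, 7, 2 and 5. Its ranks were 3.63, 7.61 and 14.0 in the 3 saline libraries that had it and 45.0 to 82.4 in the LPS libraries. Another region in Diaph1, 1393 bp from Hdac3, was open in all libraries and rose from mean ranks of 91.4 ± 3.81 and 91.7 ± 1.98 after saline in CON and MIA to 96.9 ± 1.44 and 96.9 ± 1.12 after LPS (5.34 points, SE 0.922, limma, adjusted p = 1.57e-04). The class I genes Hdac1 and Hdac2 and the NAD-dependent Sirt1 had no call.

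At Polycomb genes the clearest change was a loss. Scmh1, a component of Polycomb repressive complex 1, had a gene-body region (chr4:120523100-120523600) with a peak in 5 of 5 CON_SAL, 0 of 7 CON_LPS, 6 of 6 MIA_SAL and 0 of 5 MIA_LPS libraries (adjusted p = 1.75e-04). Ranks were 15.8, 62.6, 43.7, 31.5 and 46.4 in CON_SAL and 23.2 to 54.4 (median 50.2) in MIA_SAL. Presence did not overlap between treatments in the shortened lists, but in the uncut lists 2 CON_LPS and 4 MIA_LPS libraries had the peak and the call was lost. Ezh1, an alternative catalytic subunit of Polycomb repressive complex 2, had 2 flank regions that fell in rank, one beside Plekhh3 (-5.58 points, SE 1.60, adjusted p = 0.0165) and one beside Ramp2 (-18.6 points, SE 5.48, adjusted p = 0.0198). Both lost their call when peaks were ranked by fold, and treatments overlapped in both. Ezh2, Eed and Suz12 had no call.

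Histone demethylase genes had 4 gained regions of 20 tested and no loss, beside the same 15.3% gained and 8.39% lost over all tested regions. Kdm5a, which removes methyl groups of active promoters, gained a flank region nearest to Il17ra (chr6:120454432-120454932) with peaks in 0, 7, 2 and 5 libraries (adjusted p = 0.00137). Its ranks were 52.6, 42.2, 56.7, 52.9 and 53.5 in MIA_LPS, above the 7.92 and 23.8 of the 2 MIA_SAL libraries. Counting every deposited peak, the counts were 2, 7, 3 and 5. The neighbouring region (chr6:120453022-120453522), open in all libraries, rose by 23.2 rank points (SE 4.67, limma, adjusted p = 8.54e-04), with median ranks of 45.8, 66.4, 34.9 and 60.3.
Kdm2a, a CpG-binding demethylase, gained a flank region (chr19:4409056-4409556; 0, 7, 4 and 5 libraries, adjusted p = 0.00440) and a gene-body region (chr19:4322070-4322570; 0, 6, 1 and 4, adjusted p = 0.00787). With lists left whole, the flank region had a peak in 5, 7, 5 and 5 libraries and the body region in 1, 6, 4 and 4, and neither was called any longer. A region in Grk2, within 20 kb of Kdm2a, fell from mean ranks of 62.0 ± 11.7 to 35.9 ± 13.6 in CON and from 57.2 ± 5.7 to 44.9 ± 13.0 in MIA (-19.2 points over both, SE 4.85, adjusted p = 0.00666). Kdm6b, an inflammation-induced demethylase of the Polycomb mark, gained a flank region inside Dnah2 with 1, 7, 5 and 5 libraries. Of 6 MIA_SAL libraries 5 already had this peak, and the same region is named below for MIA against CON after saline. A region in the body of Kdm6b rose by 15.5 points (SE 4.02, adjusted p = 0.00861), with median ranks of 43.6, 60.3, 49.2 and 53.3.

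Among histone methyltransferases and acetyltransferases, Kmt2a lost a region 925 bp upstream of its start site (chr9:44881964-44882464). A weak peak was present there in 5, 2, 6 and 1 libraries (adjusted p = 0.00471), with ranks of 21.3, 0.613, 43.0, 25.7 and 12.8 in CON_SAL, while the peak at the start site was open in all libraries at ranks of 82.7 to 98.1. With all deposited peaks the call was lost. At Kmt2d a region in the neighbouring gene Rhebl1 rose by 9.82 rank points (SE 1.55, adjusted p = 5.27e-05), from medians of 81.3 and 82.7 after saline in CON and MIA to 90.7 and 91.3 after LPS. The MIA groups were apart and the CON groups overlapped at 82.9 to 83.4. Crebbp, a histone acetyltransferase, had a flank region in Trap1 with 5, 2, 5 and 2 libraries (adjusted p = 0.0480), a call that 5 of 31 alternatives kept and that leaving out any of 18 single libraries ended. No region of Ep300, its paralog, passed.

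Remodeller genes gained 5 regions of 38 tested and lost none, again beside 15.3% gained and 8.39% lost over all tested regions. Arid1b gained a gene-body region (chr17:5206794-5207294) with peaks in 0, 7, 0 and 5 libraries in both the shortened and the uncut lists (adjusted p = 1.75e-04). Ranks ran from 29 to 60.5 (median 40.1) in CON_LPS and were 34.4, 51, 56.2, 57.1 and 51.3 in MIA_LPS. Nearby, a region open in all libraries (chr17:5195357-5195857) moved the other way, from mean ranks of 68.3 ± 5.22 and 68.7 ± 3.74 after saline to 44.4 ± 13.5 and 55.2 ± 9.38 after LPS in CON and MIA (-18.7 points, SE 3.94, limma, adjusted p = 0.00138). Treatments overlapped in CON and were apart in MIA. Another region of Arid1b fell by 10.5 points (adjusted p = 0.0259), a call that ended with ranking by fold, with the replicate block, without CON_SAL replicate 1 or without MIA_LPS replicate 2.

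Chd7, a remodeller of the chromodomain family, gained 3 gene-body regions. The first (chr4:8788529-8789029) had peaks in 0, 7, 0 and 5 libraries (adjusted p = 1.75e-04), with ranks of 6.65 to 52.2 in CON_LPS and of 5.63, 51.2, 43.6, 35.2 and 20.3 in MIA_LPS. Counting every deposited peak, 1 CON_SAL and 2 MIA_SAL libraries also had it. The other Chd7 regions had 2, 6, 0 and 4 libraries, and 0, 5, 2 and 4. Smarca4, the ATPase of the BAF complex, gained a region 6084 bp upstream of its start site (chr9:21609835-21610335) with peaks in 0, 3, 0 and 5 libraries (adjusted p = 0.00440). With lists left whole, 5 CON_LPS libraries had it, and no saline library did.

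**Figure D3:**
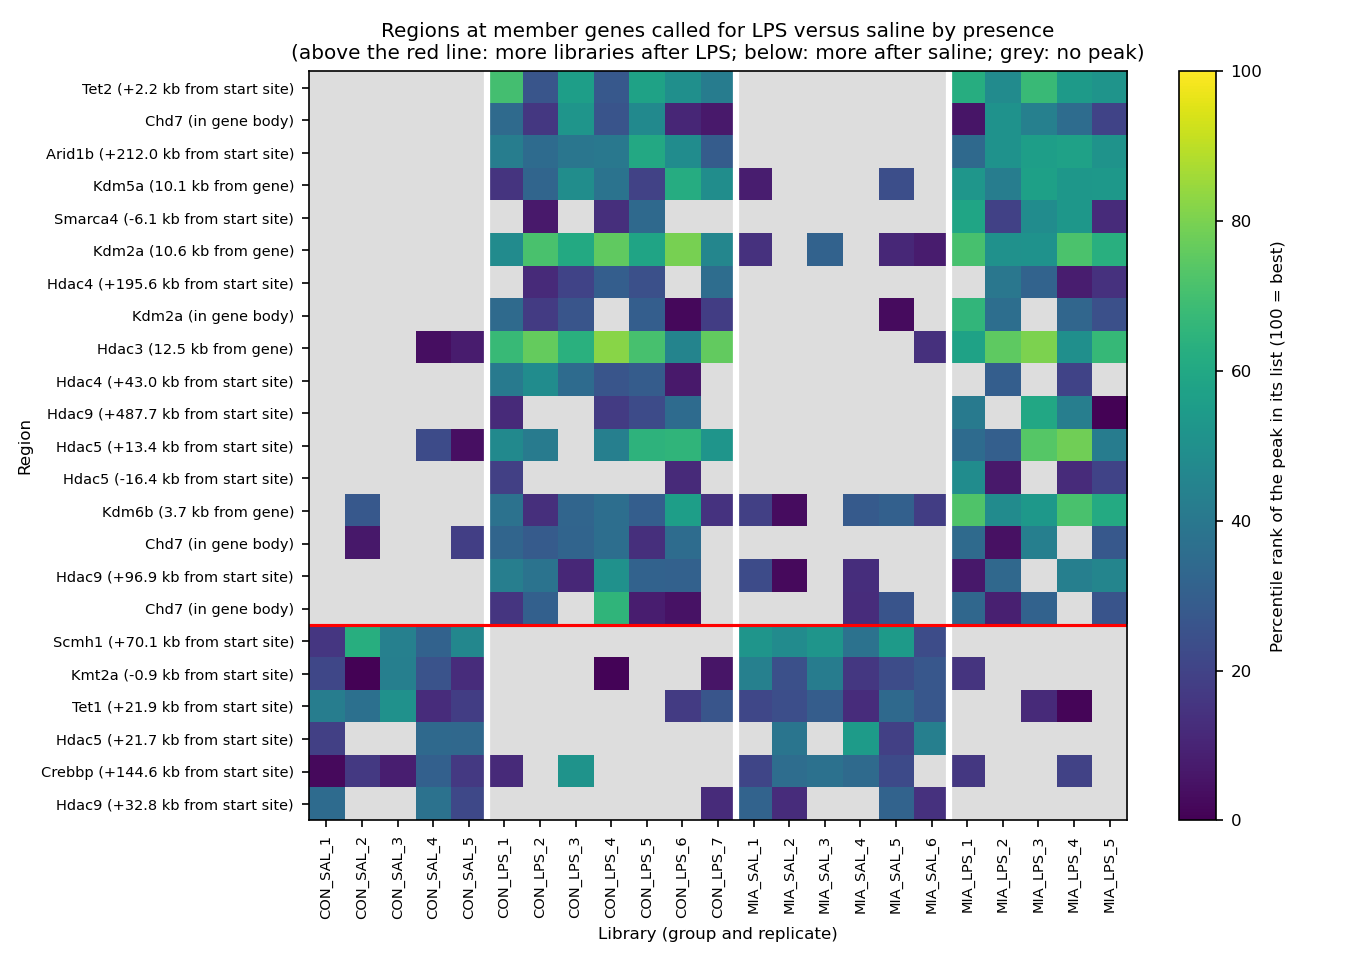
Percentile rank of the peak (colour, 100 is best; grey means no peak in the shortened list) in each of the 23 libraries (x axis) at the 23 regions that passed the presence test for LPS (y axis, with the distance from the start site or gene). The rows of Tet2 and Arid1b, and 1 of the 3 of Chd7, are filled in all 12 LPS and none of the 11 saline libraries, and the row of Scmh1 shows the reverse. The share of all tested regions that separated so fully is not given here.

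By rank, 14 of the 122 regions open in all libraries passed for LPS over both histories, 7 higher at 7 genes and 7 lower at 4 genes. The share was 11.5%, against a background of 15.4% of 16596 regions (5.74% against 7.05% higher, 5.74% against 8.39% lower). The median difference was 0.124 points at the regulators and -0.512 over all regions. Only 7 of the 14 had the regulator as nearest or holding gene. With peaks ranked by the authors' fold instead, 10 passed, 6 higher and 4 lower.

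**Figure D4:**
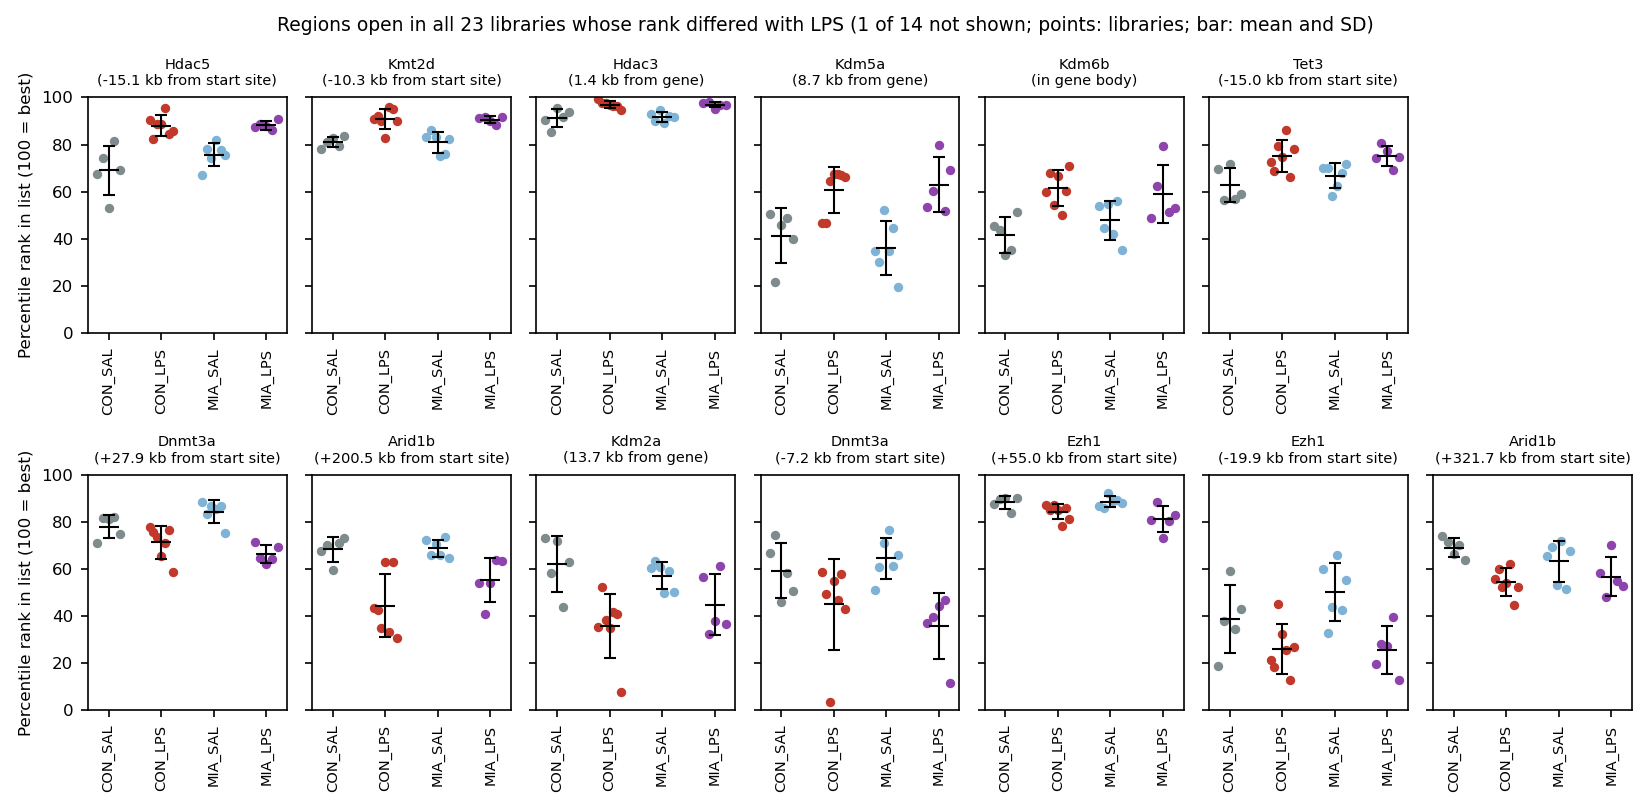
Percentile rank in the list (y axis, 100 is best) by group (x axis) at 13 of the 14 regions open in all 23 libraries whose rank differed with LPS; points are libraries and bars are mean and SD. The upper 6 panels rose after LPS and the lower 7 fell, with full separation of treatments at the region of Hdac5.

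Within CON offspring, 6 of 46 tested regions passed by presence (13.0%, background 12.4%; 9.92% gained and 2.52% lost): Tet2, Chd7, Kdm5a, Arid1b and the flank region of Kdm2a with peaks in 0 of 5 saline and 7 of 7 LPS libraries, and Scmh1 with the reverse. Fisher's exact test gave an adjusted p of 0.0101 for each. Within MIA offspring, 6 of 41 passed (14.6%, background 15.4%; 13.0% gained and 2.48% lost): Tet2, Chd7, Arid1b, Smarca4 and the gained Hdac5 body region with peaks in 0 of 6 and 5 of 5, and Scmh1 with the reverse (adjusted p of 0.0140 each, Fisher's exact test). None of these calls within a single history held with lists shortened to 16974 peaks. By rank, 9 of 122 regions passed in CON (7.38%, background 6.45%), 6 higher and 3 lower, beside backgrounds of 3.85% and 2.6%. In MIA 7 passed (5.74%, background 5.58%), 5 higher and 2 lower, beside 2.78% and 2.8%. The regions near Hdac5, Kmt2d and Hdac3 rose in both. Their changes in CON were 18.9, 10.0 and 5.5 points, and in MIA 12.4, 9.63 and 5.18. Ranked by fold, the calls of Kmt2d and Hdac3 in either history and of Hdac5 in MIA were lost. The Hdac5 call in MIA was kept in 6 of 18 alternatives, and it ended with the replicate block and on leaving out any of 9 single libraries. That a region passed in a single history does not show that the responses differ, and the direct test of that difference by rank called 0 of the 122 regions and 0 of all 16596 (0.0%, limma). At an unadjusted p under 0.05 it gave 6 and 699.

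The presence test has no such term for a difference between responses, so Kdm5a, Smarca4 and Hdac5 cannot be said to differ between histories from these calls. At Smarca4 the peak was present in 3 of 7 CON_LPS and 5 of 5 MIA_LPS libraries, and at Kdm5a in 0 of 5 CON_SAL and 2 of 6 MIA_SAL.

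Prenatal history was compared over both treatments, after saline and after LPS, and no regulator region passed in any of these comparisons. By presence the counts were 0 of 116, 0 of 35 and 0 of 26 tested regions, and over all regions 0 of 15264, 0 of 4574 and 0 of 4224 (0.0% in each). Within a single treatment, groups this small let even a fully separated region pass only if many other regions separated as fully. Those counts therefore cannot decide whether a single region differed. At an unadjusted p under 0.05 there were 1, 0 and 1 regulator regions and 410, 41 and 130 of all regions. By rank 0 of 122 regulator regions and 0 of 16596 regions passed in each of the 3 comparisons (0.0%, limma), and 5, 5 and 3 regulator regions had an unadjusted p under 0.05, of 889, 705 and 923 in all.

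The smallest p over both treatments by presence belonged to a gene-body region of Dnmt3a (chr12:3843378-3843878). A peak was found in 0, 1, 4 and 3 libraries of CON_SAL, CON_LPS, MIA_SAL and MIA_LPS (exact conditional test, p = 0.0110, adjusted p = 1.00), at ranks of 31.7 or lower. Counting every deposited peak, the counts were 2, 2, 5 and 4. A region in Pigv within 20 kb of Arid1a, a subunit of the BAF complex, had 1, 5, 1 and 0 libraries (Fisher's exact test after LPS, p = 0.0278, adjusted p = 0.903), and a region in Ep300 had 3, 2, 1 and 0. After saline, the smallest p-values were at flank regions of Hdac1 (4 of 5 CON and 1 of 6 MIA libraries) and Kdm6b (1 and 5), each with an unadjusted p of 0.0801 by Fisher's exact test, followed by a flank region of Setd2, with 0.242. After LPS, a region of Kdm2b and one near Tet3 followed Arid1a, each at 0.293.

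By rank, a region in Hdac9 (chr12:34674194-34674694) had the smallest p over both treatments. Its group means were 30.8 ± 14.5, 44.3 ± 6.52, 47.2 ± 14.4 and 56.3 ± 10.2 (SD) in the order used above. MIA stood 14.2 points above CON (SE 5.02, limma, adjusted p = 0.908). The start site of Kdm6a and a region near Tet3 came next, with 3.57 and 3.88 points. After saline the smallest p-values were at a body region of Kdm2a (16.0 points), the start site of Hdac5 (-8.28) and the same Hdac9 region (16.4), and after LPS at regions of Chd8 (-9.53), Kmt2d (13.1) and Ehmt1 (-2.62). None passed, and libraries of CON and MIA overlapped at the Hdac9 region.
For the difference of the LPS responses, the start site of Ep300 had the largest estimate of the 3 regions named, 26.6 points (SE 11.9, limma, adjusted p = 1.00). Its ranks were 94.2, 88.0, 82.0, 92.8 and 92.6 in CON_SAL, 37.8 to 93.2 (median 67.5) in CON_LPS, 40.1 to 93.9 (median 89.4) in MIA_SAL and 90.9, 98.0, 67.2, 83.2 and 91.7 in MIA_LPS. A flank region of Kdm5b (-5.51 points) and the Dnmt3a body region described above were the others.

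A wider list of 138 other chromatin regulators, chosen by role, held 793 regions. For LPS over both histories 53 of 255 changed in presence (20.8%), 36 gained and 17 lost, and 40 of 326 in rank (12.3%), 22 higher and 18 lower. The shares of both lists lay below the backgrounds of 23.7% and 15.4%. Near Jarid2, a partner of Polycomb repressive complex 2, and Pcgf3, of Polycomb repressive complex 1, a peak was present in 0, 7, 0 and 5 libraries, and in the acetyltransferase gene Kat2b in 0, 6, 0 and 5. The region near Pcgf3 lay 14093 bp from it and was nearest to Mfsd7a. Kdm1b, a lysine demethylase, lost 2 adjacent regions (5, 1, 5 and 0 libraries each). A region 17784 bp from the remodeller gene Chd4, nearest to Iffo1, was lost with 3, 0, 6 and 0. No region of this list passed for prenatal history in presence or rank.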

How the data were processed

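Peak lists of 23 libraries were used, 1 per library, on mm10 (GRCm38). The submitters' processing notes name MACS2, Bowtie2, cutadapt, SAMtools, DiffBind and Picard, without versions or settings. Without a header, the deposited columns were read from their values as a score, the fold enrichment (a ratio), the −log10 p and −log10 q of each peak, and the offset of its summit; the deposited score was not used, and the lowest deposited −log10 q was 1.301. Each library has its own list.

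Lists were shortened to 33949 peaks. Windows of 501 bp on summits were reduced to non-overlapping ones, best rank first, and 49124 of 74287 with a peak in at least 3 libraries were kept; a peak counted when 50% of the region, or 50% of the peak, was shared. Presence was tested two-sided with Fisher's exact test or an exact conditional test over strata, where a p of 0.01 was attainable. Percentile ranks by −log10 p over the 16596 regions open in all libraries were fitted with limma 3.58.1 (R 4.3.3) on 4 group means. All p-values were adjusted by Benjamini-Hochberg over all regions tested, with a call under 0.05; presence used scipy 1.17.1. The tests were tried on simulated data. Alternatives covered list length, ranking by fold, a −log10 q of 5, filters, overlap, the scale of ranks, the number of peaks, the distance to the gene, the replicate number as a block, and each library left out.

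Gene positions, start sites and promoter sequences came from RefSeq tables (GRCm38.p6); all symbols matched. The members, lists and tests were chosen with earlier results of these data known. Named regions are the first 10 (over both groups) or 5 (otherwise) per direction by adjusted p, and 3 of smallest p where none passed; other regions described were chosen after their values were seen. The labels do not say that libraries came from separate animals, so p-values reflect only how these libraries vary, which may be technical. Some libraries share the middle number of their ID label. Within a group, CON_SAL replicates 4 and 5 share 13, and across treatments CON_SAL replicate 3 and CON_LPS replicate 3 share 2. No number occurs in both CON and MIA. Apart from leaving out numbers 1 to 3, no test used this label, and libraries that share a number were treated as independent. Of the regions that passed by rank, 1 is counted but not reported here. Region sequences outside promoters were not analysed here.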

Additional observations from a re-analysis of the deposited data

Results flagged for a closer look

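In 4 of 108 groups of values tested, 1 library stood far below the rest of its group; chance gives about 1 in 20. At the region upstream of Dnmt3a, CON_LPS replicate 3 had a rank of 3.59, with the next library at 43.1, and MIA_LPS replicate 5 a rank of 11.8, with the next at 37.0. At the Hdac9 region named for prenatal history, MIA_SAL replicate 2 had a rank of 19.5, with the next at 43.3. At the region in Grk2 near Kdm2a, CON_LPS replicate 7 had a rank of 7.87, with the next at 35.0. The LPS calls at Dnmt3a and Kdm2a over both histories remained when each of these libraries was left out.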

How the results depend on the processing

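Read depth is unknown and peaks near the end of the shortened lists depend on it, so weak peaks limit the presence results. No region passed for prenatal history, or for the difference of LPS responses, under any alternative run. Over both histories, presence calls for LPS numbered 16 to 21 beside the 23 reported, and every count stayed within 1.5 times. The regions behind these counts were not always the same. Of the regions named for this comparison, lists of 16974 peaks kept 5 calls, lost 10 and reversed 1. With all deposited peaks 7 of these calls were kept and 9 lost. Counts that moved further were these. Presence in CON (6) gave 2 with lists shortened to 16974 peaks, 3 with ranking by fold, 10 without the libraries whose middle number in the ID label is 1 to 3, 2 with all deposited peaks and 0 with no filter on the attainable p. Presence in MIA (6) gave 3 with lists of 16974 peaks and 0 with no filter; without those ID numbers no region could be tested. Rank over both (14) gave 7 with lists of 16974 peaks, 50 when regions in at least 12 libraries were kept with absent peaks at rank 0, 7 within 5 kb and 7 where the regulator was the nearest gene. Rank in CON (9) gave 4 with the shorter lists, 3 by fold, 29 with absent peaks at rank 0, 5 without the ID numbers, 5 within 5 kb and 4 nearest only. Rank in MIA (7) gave 4 with the shorter lists, 3 by fold, 35 with absent peaks at rank 0, 3 within 5 kb and 3 nearest only. The cause of these moves was not tested, except that shorter lists and smaller distances test fewer regions. Crebbp turned to 7.14 percentage points with lists of 16974 peaks.

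Leaving out each library in turn gave 18 to 24 presence calls over both histories, 6 to 8 in CON and 6 to 8 in MIA, and 13 to 17, 6 to 10 and 5 to 7 rank calls; for prenatal history and the difference of responses all gave 0. Under the alternatives that refit a region (28 to 30 per region by rank, which leaves out the limits on distance and on the nearest gene), the rank calls over both histories near Hdac5, Kmt2d, Hdac3, Kdm5a and Kdm2a, at both Dnmt3a regions and at the first Arid1b region held, as did the presence calls at Tet2, Arid1b and Kdm5a under 31. With lists of 16974 peaks, the regions near Kdm5a and Kdm2a, the upstream Dnmt3a region and the first Arid1b region could not be refit by rank. The Kdm2a region could not be refit with ranking by fold either. With lists of 16974 peaks the presence calls over both histories at Chd7, Smarca4, Hdac4, Scmh1, Kmt2a, Tet1 and the Kdm2a body region were lost, as were the losses at Hdac5 and Hdac9. Without the ID numbers, the presence call at Hdac3 and the rank calls at Kdm6b, Tet3 and Ezh1 were lost.

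Deviations of same-numbered libraries had r from -0.198 to 0.153 over 31 pairs (median 0.00139), with 7 pairs over 0.1. For differently numbered libraries r ran from -0.271 to 0.230 over 166 pairs (median -0.00375), with 17 over 0.1. The difference was not tested, and 4 of 23 libraries correlated best with their own number. With the replicate block, presence over both gave 20 calls, rank over both 13 and rank in CON 5, against 23, 14 and 9 without it.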
